A study of Homo sapiens with 8 samples.

Results

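Transcripts that carry only the locus name XLOC_ were examined in HCT116, an established human colorectal cancer cell line, with and without the DNA methyltransferase inhibitor 5-aza-2'-deoxycytidine (5-aza-dC). Members were all probes that are not controls and whose gene name on the array starts with XLOC_, which gave 11836 of 50599 distinct probes for 8404 loci. Of these loci, 6417 had 1 probe and 1987 had several, up to 13. Every one of the 11836 probes was printed as 1 spot. A lincRNA catalogue accession was listed for 11154 of them, and 11752 had a chromosome position on the hg19 build. None of the 166 probes with a RefSeq accession matched a transcript in the RefSeq table used here (GRCh38.p14), so the loci keep their array names. Positions are those of the probe and not of a whole transcript, and whether a probe lies in an exon of a gene was not analysed here.

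Expression was measured on 8 one-color arrays of 4 stable clones, 2 arrays for each clone. CONT1 and CONT2 carried a control plasmid that expresses GFP and a negative control microRNA. TET1-KD1 and TET1-KD2 carried the same kind of plasmid with an artificial microRNA against TET1, the dioxygenase that oxidizes 5-methylcytosine, and the 2 clones used different microRNA sequences. All 4 clones were kept under G418, and each was measured without drug and after 72 h in 1 µM 5-aza-dC. Each condition therefore held 2 clones, and each clone is 1 isolate of a transfected line, so p-values measure the spread between 2 isolates. Conditions follow the array titles, because another label field gives mock for every control array and 5-aza-dC for every knockdown array.

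Long intergenic noncoding RNAs are transcribed from the stretches between protein-coding genes. They are usually less abundant than messenger RNAs and restricted to fewer cell types, and many have no known function. Methylation of CpG dinucleotides near a start site is a known way of keeping such transcripts, like germline and imprinted genes, silent in somatic cells. 5-aza-dC is built into replicating DNA and traps the DNA methyltransferases, so methylation is diluted as cells divide.

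Slide, depth and labels bear on each result that follows. The 4 untreated arrays and both treated knockdown arrays were on slide 1, and both treated control arrays were on slide 2. The response of the control clones and the slide therefore cannot be told apart, while the response of the knockdown clones lies within 1 slide. The level above which the scanner software counted a probe as well above background also differed, from 4.2 to 4.8 on the log2 scale of the scaled signal. It was 4.8 on both arrays of slide 2 and on the untreated TET1-KD2 array of slide 1, while the treated TET1-KD2 array had 4.25. The brightest tested of 3 TET1 probes read 9.70 and 9.75 in untreated CONT1 and CONT2 and 8.65 and 9.41 in untreated TET1-KD1 and TET1-KD2. By this probe TET1 was thus lower in both knockdown clones without overlap, but the difference did not pass the test (limma adjusted p = 0.63). The authors report reduced TET1 mRNA by RT-qPCR in both knockdown clones, more so in TET1-KD1. DNMT1, the maintenance methyltransferase and a target of the drug, read 12.26 to 12.46 on the untreated arrays. After 5-aza-dC it read 13.09 and 13.11 for CONT1 and CONT2 but 11.88 and 11.91 for TET1-KD1 and TET1-KD2. Of 8 epithelial marker genes, 6 were above background on all 8 arrays, as were 3 of 6 markers of other cells (PTPRC, COL1A1 and DES), so those 3 do not separate HCT116 from other cells here.

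The probes of the loci that carried the largest changes are shown first, because the array reports only these short stretches. Each is the 60-base probe as deposited, 5′ to 3′, with CpG dinucleotides in capitals. The first 8 are the brightest loci that were silent untreated and on in all treated clones.
XLOC_l2_015849: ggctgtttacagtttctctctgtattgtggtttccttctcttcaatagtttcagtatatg
XLOC_l2_015752: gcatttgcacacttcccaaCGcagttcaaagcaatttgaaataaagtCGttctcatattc
XLOC_005341: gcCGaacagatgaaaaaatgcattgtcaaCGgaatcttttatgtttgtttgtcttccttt
XLOC_009378: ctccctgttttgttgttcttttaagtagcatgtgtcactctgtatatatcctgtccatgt
XLOC_l2_004306: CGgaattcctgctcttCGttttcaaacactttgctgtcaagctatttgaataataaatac
XLOC_010933: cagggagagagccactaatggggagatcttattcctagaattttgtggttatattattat
XLOC_003832: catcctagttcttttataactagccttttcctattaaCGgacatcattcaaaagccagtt
XLOC_000477: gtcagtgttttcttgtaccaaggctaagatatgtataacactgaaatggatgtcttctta
The next 3 are loci that were on in the treated control clones and not in the treated knockdown clones.
XLOC_l2_010586: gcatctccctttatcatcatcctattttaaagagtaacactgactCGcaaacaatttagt
XLOC_l2_008760: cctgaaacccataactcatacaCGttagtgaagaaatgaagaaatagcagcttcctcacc
XLOC_l2_000986: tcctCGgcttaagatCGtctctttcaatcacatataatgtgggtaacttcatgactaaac
These probes lie at chrX:152661129-152661188 (XLOC_l2_015849, minus strand), chrX:70882845-70882904 (XLOC_l2_015752, minus), chr6:71109007-71109066 (XLOC_005341, plus), chr11:13001065-13001124 (XLOC_009378, minus), chr14:101539197-101539256 (XLOC_l2_004306, plus) and chr14:101402717-101402776 (XLOC_010933, plus). XLOC_003832 lies at chr4:189081874-189081933 (plus) and XLOC_000477 at chr1:180535538-180535597 (plus). XLOC_l2_010586 lies at chr4:12249618-12249677 (plus), XLOC_l2_008760 at chr20:11251213-11251272 (minus) and XLOC_l2_000986 at chr1:87992047-87992106 (minus).

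Most XLOC probes gave no signal well above background in these cells. On single arrays 14.2% to 20.4% of them were above background, against 56.6% to 65.5% of the probes with other names. The share was 16.7% and 17.3% in untreated CONT1 and CONT2 and 16.4% and 14.8% after 5-aza-dC. It was 17.5% and 14.2% in untreated TET1-KD1 and TET1-KD2 and 19.5% and 20.4% after 5-aza-dC. The treated knockdown arrays held the highest shares and also the lowest detection levels, 4.2 and 4.25. Taken per condition, 1719 XLOC probes (14.5%) were above background in both untreated control clones, 1531 (12.9%) in both untreated knockdown clones, 1476 (12.5%) in both treated control clones and 2043 (17.3%) in both treated knockdown clones. The shares of the probes with other names were 57.6%, 55.4%, 57.4% and 62.3%, so the treated knockdown clones were highest in both sets. Over the series, 1069 XLOC probes (9.03%) were above background on all 8 arrays and 8154 (68.9%) on none. Of the probes with other names, 51.3% were above background on all 8 arrays and 28.1% on none.

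**Figure D1:**
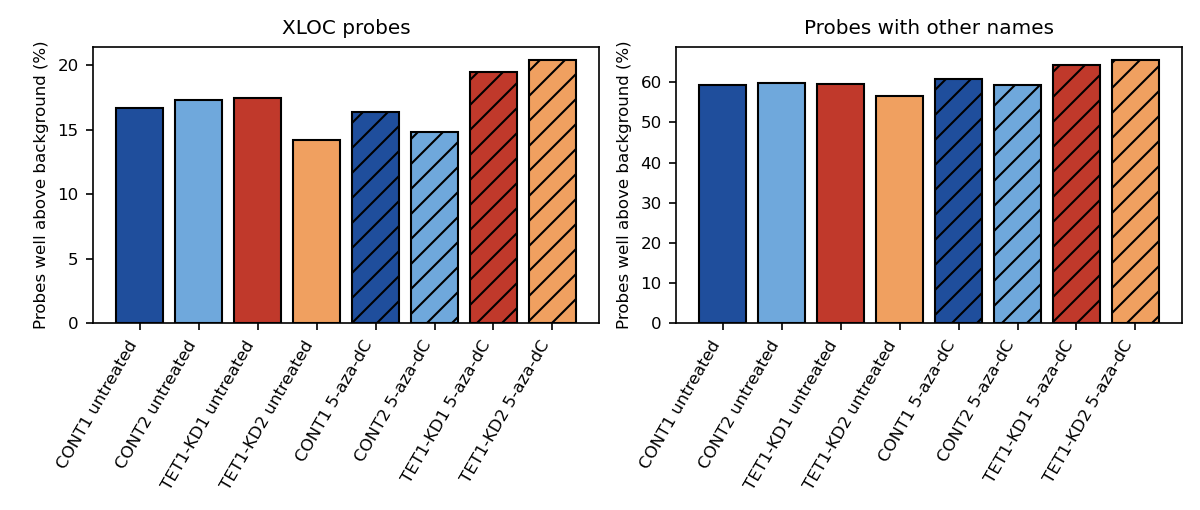
Share of probes well above background on each array (%), for XLOC probes (left) and for probes with other names (right), with hatched bars for 5-aza-dC. XLOC shares lie between 14.2% and 20.4%, and the tallest bars of both panels are the treated knockdown arrays.

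A small set of XLOC loci was silent in every untreated clone and on in every treated clone. Here silent means not well above background on any of the 4 untreated arrays, which was so for 9164 XLOC probes (77.4%), and on means well above background on both treated arrays of a kind of clone. Of the 9164 silent probes, 138 (1.51%) of 121 loci were on in both kinds of clone, 34 (0.371%) in the control clones only and 59 (0.644%) in the knockdown clones only. Over all 23201 silent probes of the array the corresponding shares were 4.97%, 0.509% and 1.12%, and for the probes with other names alone 7.22%, 0.598% and 1.42%. Disregarding the knockdown clones, 220 silent XLOC probes were on in the control clones (2.4%, against 6.53% of all silent probes). Disregarding the control clones, 232 were on in the knockdown clones (2.53%, against 6.86%), a count measured within slide 1. A further 779 silent XLOC probes were above background on some treated arrays in other patterns. With 1 threshold of 4.8 for all arrays, 122 probes were on in both kinds, 98 of them in the set of 138. Under that threshold the sets on in 1 kind only became 71 (control) and 10 (knockdown), so which of these sets is the larger depended on the threshold.

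The 138 probes on in both kinds had treated signals that ran from the detection level to the top of the scale. The median was 2.31, 2.20, 2.16 and 2.47 in untreated CONT1, CONT2, TET1-KD1 and TET1-KD2, and 6.53, 6.21, 5.56 and 6.12 after 5-aza-dC. All of these untreated medians lie below the detection levels. The mean over the treated arrays was 10 or more for 6 probes, 8 to 10 for 12, 6 to 8 for 52 and below 6 for 68. For CONT1, CONT2, TET1-KD1 and TET1-KD2 the median response was 4.03, 3.96, 3.16 and 3.44 on the log2 scale, where the value before treatment is a background reading. For the 1014 probes with other names that were chosen the same way, these medians were 4.25, 4.27, 3.59 and 3.92. Among the 4 treated arrays, TET1-KD1 held the lowest reading for 97 of the 138 probes and CONT1 the highest for 74. The TET1-KD1 arrays were on slide 1 with the TET1-KD2 arrays, whose treated reading was lowest for 22 of the 138. This order was not counted for the 1014 probes with other names, whose median response was also lowest in TET1-KD1. These probes were chosen by detection on the same arrays, so their levels and fold changes are descriptions.

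**Figure D2:**
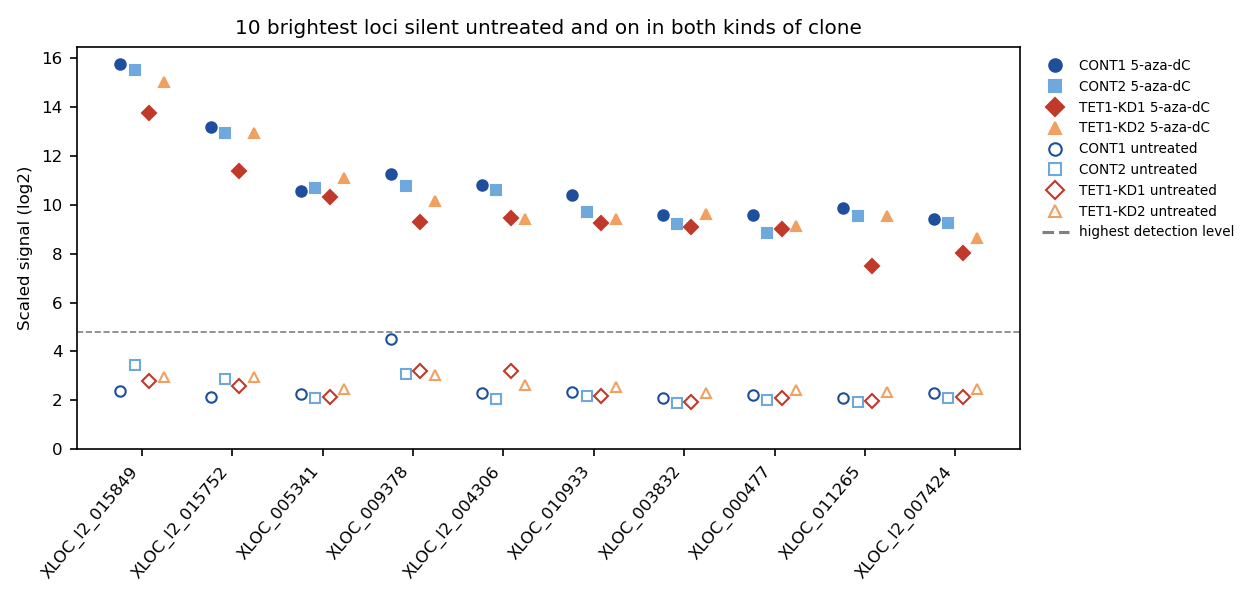
Scaled signal (log2) on each of the 8 arrays for the 10 brightest loci that were silent untreated and on in both kinds of clone, with open symbols for untreated and filled symbols for treated arrays. The dashed line is the highest detection level, 4.8; all open symbols lie under it and all filled symbols above it.

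The brightest of these loci was XLOC_l2_015849 on chromosome X. Its untreated log2 signals were 2.38, 3.46, 2.78 and 2.96 in CONT1, CONT2, TET1-KD1 and TET1-KD2, and its treated signals 15.77, 15.52, 13.78 and 15.02. The signal was at least 2570-fold higher after 5-aza-dC in the control clones and at least 1010-fold higher in the knockdown clones. A bound of this kind sets the treated mean against the lowest signal counted as above background on the untreated arrays, or against the probe's own reading where that is higher. The array annotates this probe with a cDNA from a testis library. The nearest probe of a named gene within 100 kb belongs to ZFP92, a zinc finger gene, 24501 bases away on the opposite strand.

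XLOC_l2_015752, also on chromosome X, went from 2.15, 2.85, 2.59 and 2.93 in the same order of clones to 13.18, 12.96, 11.39 and 12.96. The bound was 431-fold for control and 214-fold for knockdown clones. Its second probe, 3104 bases away, did not follow. That probe was above background on all 4 untreated arrays (5.43 to 6.0) and read 4.51, 4.77, 5.6 and 6.43 after treatment. A neighbouring locus, XLOC_008183 (chrX:70940588-70940647, plus strand), lies 57684 bases from the first probe and had signal before treatment. It read 8.03, 7.84, 7.71 and 7.90 untreated and 13.96, 13.70, 12.48 and 14.02 treated, and rose in both kinds of clone (log2 fold change 5.90, SE 0.164, adjusted p = 0.000617 in control, and 5.44, SE 0.557, adjusted p = 0.0136 in knockdown clones). In the same 100 kb surroundings the probe for ACRC, a gene known from germ cells, read 6.98 to 7.74 untreated and 13.39 to 14.03 treated, whereas OGT, which encodes the O-GlcNAc transferase, read 12.03 to 12.18 and 11.21 to 11.92. These neighbours were chosen after their values were seen. High treated readings on this stretch were thus seen at some probes and not at others.

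XLOC_005341 on chromosome 6 was read by a pair of overlapping probes, shown here with their 48 shared bases in capitals.
XLOC_005341 first probe: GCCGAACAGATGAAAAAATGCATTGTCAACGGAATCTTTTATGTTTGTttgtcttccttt
XLOC_005341 second probe: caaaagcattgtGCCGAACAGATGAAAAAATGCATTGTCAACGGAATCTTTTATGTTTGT
The first probe read 2.26, 2.09, 2.12 and 2.46 untreated and 10.55, 10.68, 10.31 and 11.11 treated, at least 78.7-fold higher in control and 77.6-fold in knockdown clones. The second read 2.01 to 2.40 untreated and 10.33 to 10.93 treated. The readings of the probes thus differed by at most 0.17 on any treated array. The treated readings of the kinds of clone overlapped at this locus.

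The other bright loci had fold bounds between 15-fold and 99.9-fold. XLOC_009378 read 3.04 to 4.50 untreated and 11.26, 10.76, 9.29 and 10.17 treated, with bounds of 99.9-fold in control and 39.5-fold in knockdown clones. The nearest named probe was that of RASSF10, a RAS association domain gene known to be methylated in several cancers, 31436 bases away on the opposite strand. XLOC_003832 read 1.90 to 2.28 untreated and 9.57, 9.20, 9.09 and 9.64 treated. It lies 13244 bases from a probe of TRIML1, a tripartite motif gene, on the same strand. XLOC_000477 read 2.02 to 2.43 untreated and 9.59, 8.86, 9.0 and 9.15 treated, and its second probe, which was also silent untreated, read 8.15, 7.29, 7.53 and 7.63. XLOC_011265 (chr15:57617077-57617136, plus strand) read 9.87, 9.55, 7.50 and 9.53 after treatment, so its lowest value came from TET1-KD1. XLOC_l2_007424 (chr2:90531722-90531781, plus strand) read 9.43, 9.24, 8.03 and 8.64. Among the 10 loci, the readings of treated control and treated knockdown clones overlapped for XLOC_005341, XLOC_003832 and XLOC_000477 and met at 12.96 for XLOC_l2_015752. For the other 6 both control readings were above both knockdown readings, though for XLOC_011265 only by 9.55 against 9.53. This order was not counted over all probes of the array chosen the same way. The median responses of those with other names were also lower in the knockdown clones, so no order particular to XLOC loci can be read here.

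A pair of the 10 brightest loci lay in the imprinted DLK1-DIO3 region of chromosome 14, which is known for maternally expressed noncoding RNAs, small nucleolar RNAs (snoRNAs) and microRNAs. XLOC_010933 read 2.34, 2.17, 2.17 and 2.56 untreated and 10.39, 9.70, 9.24 and 9.44 treated, with bounds of 53.1-fold in control and 30.1-fold in knockdown clones. XLOC_l2_004306, 136421 bases further on, read 2.29, 2.05, 3.20 and 2.62 untreated and 10.83, 10.60, 9.48 and 9.42 treated. Its bounds were 84.4-fold and 32.5-fold, and both treated control readings lay above both treated knockdown readings. The XLOC_010933 probe ends 66 bases before the probe of SNORD113-4, a snoRNA of the same strand.

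The surroundings of these loci, from chr14:101302717 to 101639338, were chosen after their values were seen. They held 10 XLOC probes of 7 loci, of which 8 were silent untreated and 3 were on in both kinds of clone. They also held 44 probes of named genes, of which 42 were silent untreated and 30 on in both kinds. Most of those were snoRNAs of the SNORD113 and SNORD114 families: 27 of 37 such genes were silent and on in both kinds, with mean treated signals from 4.92 to 10.54 (median 8.35). MEG8, a maternally expressed noncoding RNA, read 2.22 to 3.88 untreated and 6.73 to 7.54 treated. The 2 named probes that were not silent untreated were both of MEG3, and they disagreed. One read 4.64 to 5.38 untreated and 13.95 to 14.82 treated. The other read 7.42 to 7.63 untreated, 5.54 and 5.37 in treated control and 7.30 and 7.74 in treated knockdown clones. XLOC_011130 (chr14:101538455-101538514, minus strand), beside XLOC_l2_004306 but on the other strand, did the reverse in the control clones. It read 8.95, 8.88, 8.64 and 8.96 untreated and 6.57, 6.33, 8.65 and 8.90 treated, and fell in the control clones (log2 fold change -2.46, SE 0.148, adjusted p = 0.00194). In the knockdown clones the fold change was -0.02 (SE 0.225, adjusted p = 0.967), and the difference passed the test (2.44, SE 0.268, adjusted p = 0.0124).

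**Figure D3:**
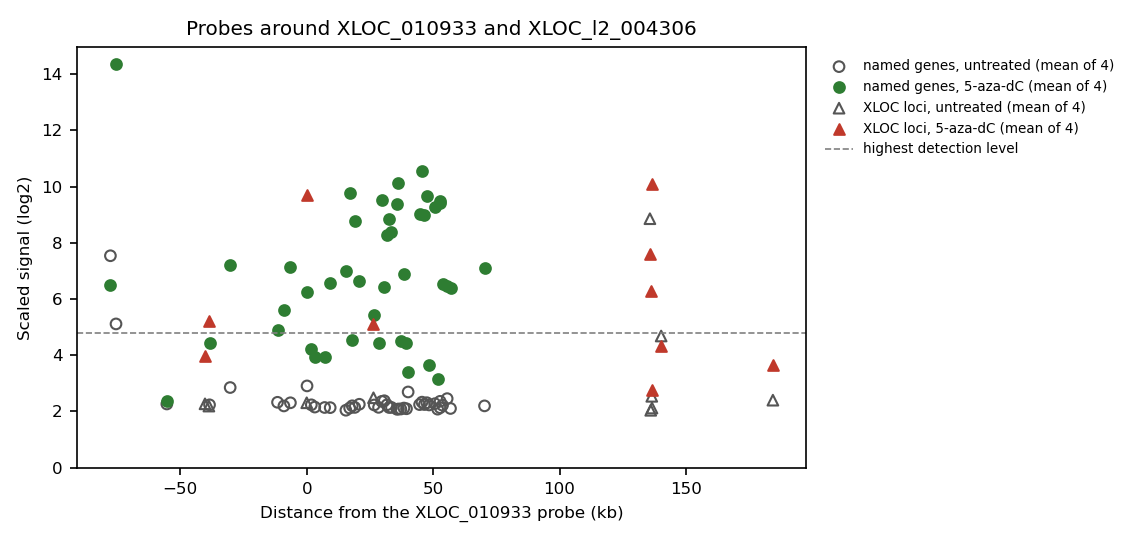
Mean scaled signal (log2) over the 4 untreated arrays (open symbols) and over the 4 treated arrays (filled symbols) by distance from the XLOC_010933 probe (kb), for named genes (circles) and XLOC loci (triangles). Nearly all open symbols lie near 2 and 30 named and 3 XLOC probes were on in both kinds after treatment; the open triangle near 8.9 is XLOC_011130.

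Neighbouring named genes, sequence and position were then compared between the 138 probes and the 8154 XLOC probes that were above background on no array. A named gene's probe lay within 100 kb of 80 of the 137 mapped probes (58.4%), at a median of 26689 bases, and of 54.7% of the never detected ones. That neighbour was itself silent untreated and on in both kinds for 10 of the 80 (12.5%), against 4.31% for the never detected probes. The 10 included SNORD113-4, FLJ41170 (for 2 probes of XLOC_l2_004306), THBS2, which encodes a thrombospondin of the matrix, APBB1IP, an adaptor of RAP1 signaling, and SCCPDH (for 2 probes of XLOC_000643). THBS2 read 2.56 to 3.80 untreated and 9.50, 8.73, 5.77 and 8.37 treated. SCCPDH read 2.03 to 3.54 untreated and 10.74, 10.24, 9.19 and 9.87 treated. These shares were not tested, since neighbouring probes are not independent.

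Of the 138 probes, 9 were on chromosome X (6.52%, against 1.78% of the never detected ones) and 19 on chromosome 4 (13.8%, against 7.16%). By chromosome, 5.08% of the silent XLOC probes of chromosome X, 2.81% of those of chromosome 4 and none of those of chromosomes 16 and 21 were on in both kinds. These shares were not tested. The median GC content of the probes was 38.3%, against 41.7% for the never detected ones, and 52.2% against 58.2% held no CpG. An Ensembl transcript was the main accession for 48.6% against 33.3%. Of the 34 control-only probes the median GC content was also 38.3%, and of the 59 knockdown-only probes 45.0%. The sets thus differed in base composition, and its part in the counts was not tested beyond the alternative that removes a GC trend.

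Loci with several probes were then read probe by probe. Of the 121 loci with a probe on in both kinds, 62 had no other probe. Of the other 59, 17 had 2 or more probes on in both kinds and 6 had all of their probes on. Their 101 remaining probes included 50 that were never above background and 31 that were already above background on an untreated array. A locus name therefore covers probes that read differently. Agreement within a locus is also not independent where its probes overlap. Paired probes of XLOC_000643, XLOC_005341, XLOC_011344 and XLOC_009120 share 58, 48, 44 and 34 bases. How many of the 17 loci rest on such pairs was not counted. In 4 places a pair of neighbouring loci within 100 kb were both on: XLOC_008752 with XLOC_l2_001888, XLOC_001576 with XLOC_001584, XLOC_l2_009449 with XLOC_014292, and XLOC_003690 with XLOC_007701. The first pair share 31 bases of probe sequence, in capitals here, so they may read the same RNA and are uncertain as separate loci.
XLOC_008752 (chr10:26866643-26866702, minus strand): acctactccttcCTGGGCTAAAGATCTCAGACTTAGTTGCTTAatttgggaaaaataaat
XLOC_l2_001888 (chr10:26953176-26953235, minus strand): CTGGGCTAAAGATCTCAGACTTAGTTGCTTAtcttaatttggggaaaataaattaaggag
No probe of the 138 shared a run of 20 bases with a probe whose name does not start with XLOC_, whereas 87 of the 2672 XLOC probes with signal on an untreated array did (3.26%). Only probes of the array were compared, not transcripts.

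Loci on in the control clones only were read next, with the slide in view. XLOC_l2_010586 read 3.87 and 3.62 in untreated CONT1 and CONT2, 7.18 and 7.80 after 5-aza-dC, 3.32 and 3.4 in the untreated knockdown clones and 1.76 and 2.12 in the treated ones. The treated control signal was at least 10.3-fold the treated knockdown signal. XLOC_l2_008760 read 2.8, 2.15, 3.0 and 2.57 untreated and 6.89, 7.73, 2.00 and 1.93 treated (at least 9.1-fold). XLOC_l2_000986 read 2.24 to 2.66 untreated and 6.90, 6.52, 2.09 and 2.00 treated (at least 6.0-fold). The kinds of clone did not overlap after treatment at these loci, which follows from how they were chosen, so their values are descriptions. Each of the other probes of XLOC_l2_010586 and XLOC_l2_008760, 2 for either locus, was at background on all 8 arrays.

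The other 3 bright control-only loci rested on 1 array or on unlike clones. XLOC_006210 (chr7:112260602-112260661, plus strand) read 9.17 in treated CONT2, while its spot on the treated CONT1 array was flagged and dropped, and 2.36 to 2.89 elsewhere. The other probe of XLOC_006210 was at background on every array. XLOC_l2_015206, which has no position, read 7.70 in treated CONT1, its treated CONT2 spot was dropped, and it read 1.97 to 2.35 elsewhere. With 1 treated control array each, these loci have no spread of their own in that group. The probe of XLOC_l2_015206 also shares at least 20 bases with a probe whose name does not start with XLOC_. XLOC_002953 (chr3:184494139-184494198, plus strand) read 8.96 in treated CONT1 but 5.14 in treated CONT2, and its control response did not pass the test (adjusted p = 0.0536). The bound was 6.66-fold after treatment in the control clones.

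Loci on in the knockdown clones only were dim. The brightest, XLOC_000515 (chr1:200384539-200384598, plus strand), read 2.02 to 2.42 untreated, 4.03 and 4.73 for treated CONT1 and CONT2 and 6.79 and 4.90 for treated TET1-KD1 and TET1-KD2. Its knockdown response did not pass the test (adjusted p = 0.0688), and the bound was 2.67-fold. The other probes of XLOC_000515 did not separate the kinds of clone after treatment. A probe above background on 3 arrays read 5.52 and 4.25 in treated control and 5.13 and 4.65 in treated knockdown clones. Another, above background on 1 array, read 2.61 and 4.94 against 5.1 and 3.48. XLOC_l2_007898 read 3.35 and 3.93 against 6.07 and 5.03, XLOC_001173 4.07 and 4.48 against 5.41 and 5.37, and XLOC_003784, 7991 bases from HAND2, a transcription factor of heart and limb, 3.99 and 4.51 against 4.92 and 5.82. The other probe of XLOC_003784, above background on 1 array, read 3.23 and 2.5 against 3.75 and 4.6. XLOC_l2_010063 read 4.06 and 4.74 against 5.11 and 5.85. None of these 5 had a difference in response that passed the test (adjusted p from 0.111 to 0.379). Of the 59 probes, 43 had their highest treated control reading within 1 log2 unit below 4.8, and 35 had a mean treated knockdown signal under 4.8. Most of this set thus read close to the detection levels in both kinds of clone.

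Per clone, the number of XLOC probes that were off untreated and on after 5-aza-dC was 603 and 486 for CONT1 and CONT2, and 531 and 852 for TET1-KD1 and TET1-KD2. The means were 544.5 ± 82.7 (SD, n = 2) in control and 691.5 ± 227.0 (SD, n = 2) in knockdown clones, with an exact two-sided permutation p = 0.667 over the 6 assignments of clones, where 0.333 is the smallest p possible. Probes that went off numbered 628, 787, 295 and 116 in the same order, so the counts of losses did not overlap between the kinds. As a share of the XLOC probes off before treatment, the gains were 6.11%, 4.96%, 5.44% and 8.39%, against 11.5%, 9.85%, 11.7% and 16.9% over all probes. As a share of those on before treatment, the losses were 31.8%, 38.4%, 14.2% and 6.93%, against 9.84%, 12%, 3.52% and 1.63%. The losses thus ordered the clones as they did over the whole array, and TET1-KD2 had the largest and CONT2 the smallest gain in both. The detection level of TET1-KD2 was 4.8 on its untreated and 4.25 on its treated array, which bears on its gains and losses. With 1 threshold of 4.8 on all arrays the gains were 654, 580, 336 and 461, and the direction turned (exact permutation p = 0.333).

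Among the XLOC probes with enough signal for a test, calls in the control clones went in both directions and nearly all of those in the knockdown clones were rises. The test took in probes that were detected in both clones of some condition, which held for 2289 of the 11836 XLOC probes. In the control clones 549 rose (24.0%, against 21.7% of all 27321 probes tested) and 632 fell (27.6%, against 24.5%), with a median log2 fold change of -0.19 for XLOC probes and -0.08 for all probes. In the knockdown clones 184 rose (8.04%, against 5.89%) and 5 fell (0.218%, against 0.275%), with medians of -0.002 and -0.07. Of the 184, 157 also rose in the control clones (85.3% of the knockdown list and 28.6% of the control list). The comparisons share no array but do share the detection filter. The overlap over all probes tested was not counted, so these shares have no background beside them. Of the 184, 147 (79.9%) were silent on all 4 untreated arrays, so they entered the test only through treated arrays, and the direction of their calls rests on that choice. Of the 549 that rose in control clones, 254 (46.3%) were silent on all 4 untreated arrays, and of the 632 that fell, 316 were not above background on either treated control array. Among the 1069 probes above background on all 8 arrays, 190 rose and 263 fell in the control clones, and 14 rose and 2 fell (XLOC_003221 and XLOC_014288) in the knockdown clones. With the methods' t-test and the same adjustment no XLOC probe passed in the knockdown clones, and neither did any other probe tested. The fit and adjustment were also restricted to the 20959 probes of the array above background on all 8 arrays, which include those 1069. In the knockdown clones 3 XLOC probes then rose and 0 fell, against 65 and 0 of the 20959. In the control clones 220 rose and 303 fell, against 4199 and 6018. In this fit the XLOC shares were thus close to those of the array. The split in the control clones depended on the background correction and the filter: rises were 46.5% of the calls, but 65.0% with normexp (610 rises and 329 falls) and 56.5% without the filter on dim probes (812 and 625).

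**Figure D4:**
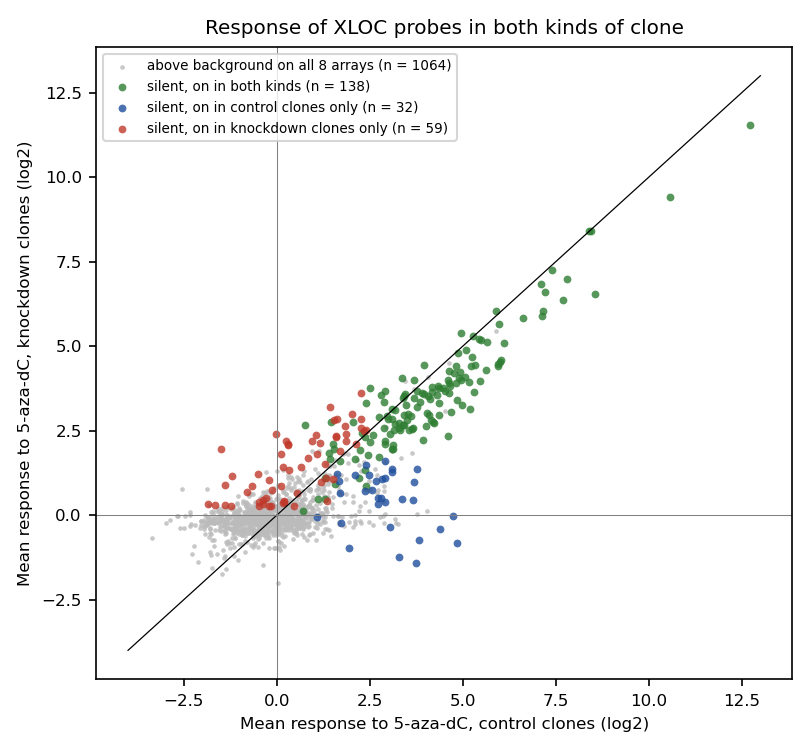
Mean response to 5-aza-dC (log2) in the knockdown clones against that in the control clones for XLOC probes with a value on every array, coloured by class. Green points, on in both kinds (n = 138), mostly lie on or below the line of equal response, and gray points, above background on all 8 arrays, spread more along the control axis.

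The largest rises among probes with signal on every array were seen in both kinds of clone. After XLOC_008183, described above, these were XLOC_009146 (chr11:61274039-61274098, plus strand), XLOC_013028 (chr19:29706359-29706418, plus), XLOC_l2_004315 (chr14:103556285-103556344, plus) and XLOC_001532 (chr2:74376098-74376157, plus). XLOC_009146 read 5.52 to 7.13 untreated and 11.44, 11.09, 9.64 and 10.94 treated, and rose by 4.64 (SE 0.396, adjusted p = 0.004) in control and 4.52 (SE 0.508, adjusted p = 0.0174) in knockdown clones. XLOC_l2_004315 rose by 4.37 (SE 0.245) and 3.77 (SE 0.378). XLOC_013028 and XLOC_001532 rose in the control clones (4.52, SE 0.198, and 4.29, SE 0.169). Their knockdown fold changes of 3.07 (SE 0.894, adjusted p = 0.168) and 3.70 (SE 0.754, adjusted p = 0.083) did not pass the test, and TET1-KD1 gave the lowest treated reading of each (8.04 and 8.97). No difference in response passed the test for these 5 loci (adjusted p from 0.448 to 0.932). XLOC_001532 had other probes that did not follow. One was above background on all 8 arrays and read 8.08 to 8.31 untreated and 8.21 to 8.80 treated. Another was at background on all 8.

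The largest falls were measured in the control clones, which were the ones on slide 2 after treatment. XLOC_004774 (chr5:33519991-33520050, minus strand) read 11.79 and 11.39 in untreated and 8.96 and 8.46 in treated control clones, and 11.30, 11.29, 11.24 and 11.08 on the 4 knockdown arrays. XLOC_011150 (chr14:105491402-105491461, minus) read 8.88 to 8.95 untreated, 6.11 and 4.95 in treated control and 8.19 and 8.35 in treated knockdown clones. XLOC_012471 (chr17:38689129-38689188, minus) went from 8.68 and 8.32 to 5.46 and 5.58 in control clones and read 8.45, 8.62, 8.45 and 8.14 in knockdown clones. XLOC_012142 and XLOC_009339 behaved alike, with log2 fold changes of -2.70 (SE 0.28) and -2.65 (SE 0.257) in control and -0.03 (SE 0.208) and -0.02 (SE 0.223) in knockdown clones. For all 5, the treated control readings lay below every other reading, and the difference in response passed the test (limma adjusted p from 0.00979 to 0.038). These loci were chosen as the largest falls in the control clones, and the test of the difference uses the same arrays. The separation and these p-values thus follow in part from the choice and are descriptions. The other probes of XLOC_012142 and XLOC_012471 were at background on every array, so these falls rest on 1 probe each.

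**Figure D5:**
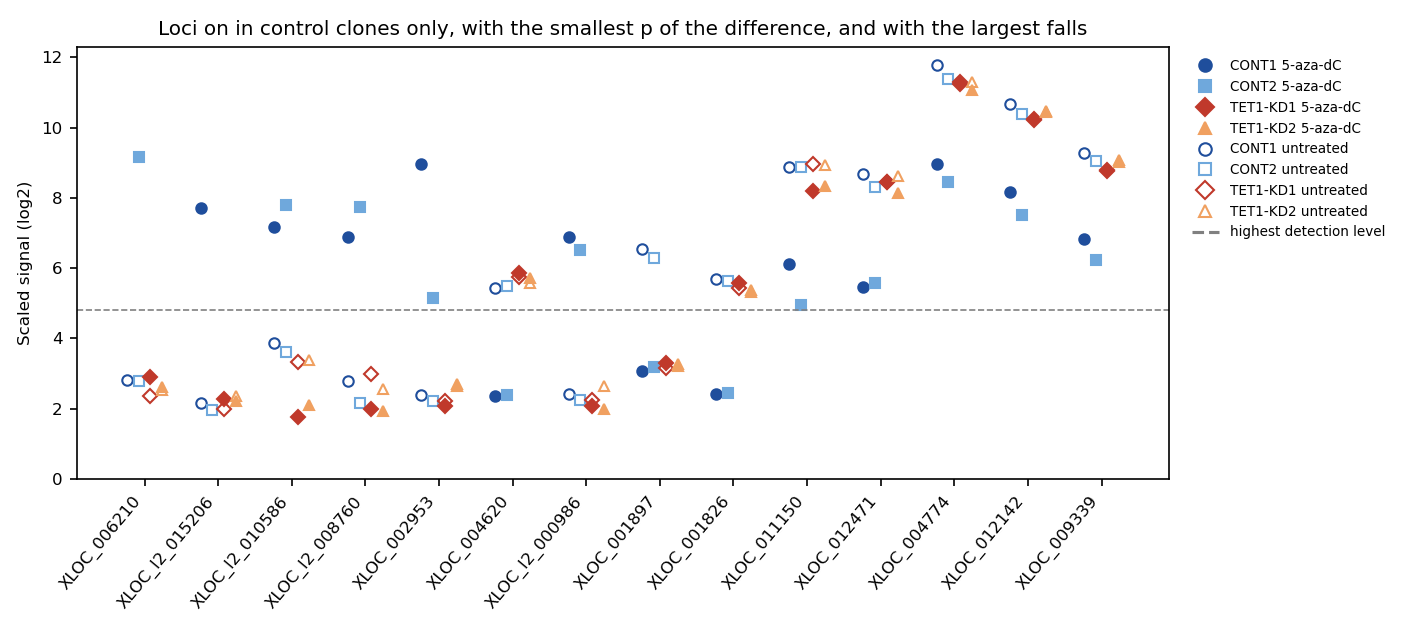
Scaled signal (log2) on each array for the loci on in control clones only, those with the smallest p of the difference in response and those with the largest falls, with the highest detection level as a dashed line. Filled blue symbols, the treated control clones, stand apart from the other arrays at each locus except XLOC_001897, where the untreated control clones (6.55 and 6.29) do.

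By the test of the difference itself, 277 XLOC probes responded differently in the 2 kinds of clone. The response was smaller in the knockdown clones, or opposite in sign, for 276 of the 2289 (12.1%, against 5.55% of all probes tested) and larger for 1 (0.0437%, against 0.0586%). The knockdown response was of opposite sign to the control response for 111 of the 277. Of the 276, 218 had a negative and 58 a positive fold change in the control clones, and 102 of the 277 were above background on all 8 arrays. The other 175 had at least 1 background reading, so the size of their difference depends on how dim signals were processed. XLOC_004620 (chr5:158848420-158848479, plus) read 5.43 to 5.74 untreated, 2.36 and 2.40 in treated control and 5.86 and 5.72 in treated knockdown clones. XLOC_001826 (chr2:208110544-208110603, plus) read 5.39 to 5.69 untreated, 2.41 and 2.46 in treated control and 5.57 and 5.31 in treated knockdown clones. Both were at background on the treated control arrays, at least 1.83-fold and 2.09-fold lower than before treatment. Of the other probes of XLOC_001826, 1 was above background on 1 array and the rest on none. The number of probes with a smaller or opposite response fell when either untreated control array was left out, over all probes tested as at XLOC probes. With normexp background correction 99 XLOC probes passed, against 843 of all 27321 probes tested.

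XLOC_001897 (chr2:231752124-231752183, plus strand) had signal in the untreated control clones and nowhere else. It read 6.55 and 6.29 there, 3.16 and 3.22 in the untreated knockdown clones and 3.06 to 3.30 on the treated arrays. The other probe of this locus was at background on every array. The untreated level of the first probe was at least 3.98-fold higher in the control clones, all on slide 1. This difference did not pass the test across all probes (limma adjusted p = 0.313). The reverse was seen at XLOC_l2_011996 (chr5:36488399-36488458, minus), which read 2.35 and 1.96 in the untreated control clones, 7.6 and 5.77 in the untreated knockdown clones and 2.54 to 3.44 on the treated arrays. The treated knockdown readings were at background, at least 5.89-fold lower than before treatment (adjusted p = 0.0446), with untreated readings that differed between the clones. The other 4 that fell there were XLOC_003221 (8.73 and 8.25 to 6.95 and 6.54), XLOC_002319, XLOC_014288 and XLOC_l2_010586, the last at background on all 4 knockdown arrays. Without treatment, no XLOC probe and none of all 27321 probes (0.0%) differed between knockdown and control clones by limma. An unadjusted limma p below 0.05 was found for 176 XLOC probes (7.69%). The share over all probes tested was not counted, so no trait of XLOC loci can be read from this number.

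Signal that was present in all untreated clones was lost in the control clones at more loci than in the knockdown clones. Of 1474 XLOC probes above background on all 4 untreated arrays, 243 (16.5%) were above background on neither treated control array and 7 (0.475%) on neither treated knockdown array, with 6 in both sets. Over all 22679 such probes of the array the shares were 4.27% and 0.097%, so more losses in control clones were seen across the array and not at XLOC probes alone. Of the 243, 225 were above background on both treated knockdown arrays. With 1 threshold of 4.8 for all arrays, 182 of 1352 were lost in control and 17 in knockdown clones. The direction was thus the same under both thresholds, and slide and kind of clone cannot be told apart in it. The brightest XLOC probes did not take part: XLOC_l2_004940, XLOC_l2_015478 and XLOC_l2_005557 read between 17.37 and 18.12 on every array, and none changed by the test in either kind of clone.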

How the data were processed

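Total RNA of 8 samples was labeled with Cy3 and hybridized to SurePrint G3 Human GE arrays. The authors deposited spot intensity values written by Agilent Feature Extraction 10.7, per the labels, with background subtracted and poor spots flagged but arrays not normalized to each other. Their own analysis used GeneSpring GX, and its normalization is not given in the sources used here. Intensities were scaled to give all arrays the same 75th percentile, 544.384, which is the geometric mean of their percentiles before scaling. Scaled values below 1 were then set to 1, and log2 was taken. Flagged spots were dropped and spots of a probe averaged. Detection used the software's flag for signal well above background. limma 3.58.1 in R 4.3.3 was fitted on all 27321 probes tested, with 4 arrays for each response and all 8 for the difference, and Benjamini-Hochberg adjustment at 0.05; it was tested on simulated data. The number of arrays limits precision. Same-numbered arrays come from the same clone, and their deviations correlated by 0.198 (CONT) and 0.475 (TET1-KD).

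Named loci were, by brightest probe, the 10 brightest on in both kinds, the 5 brightest on in 1 kind only, the 5 largest rises and falls in control clones among probes above background on all arrays, the 5 smallest p of the difference and the 3 brightest untreated. Members, lists and rules were chosen with earlier results of these data known. Loci named outside this rule (XLOC_011130, XLOC_l2_011996, XLOC_003221, XLOC_002319, XLOC_014288 and the paired neighbours) were chosen after their values were seen. Neighbours were probes with a gene symbol within 100 kb; names that are only an accession were set aside after they were seen. A slide block could not be fitted for the control response.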

Additional observations from a re-analysis of the deposited data

Results flagged for a closer look

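The difference in response between kinds of clone stood out for 276 XLOC probes, whose knockdown response was smaller or opposite in sign. It also stood out for 1 probe, XLOC_l2_007167, whose knockdown response was larger. Its fitted log2 fold changes were 0.50 in control and 2.11 in knockdown clones, with a difference of 1.61. Its untreated knockdown readings were at background, and every other probe of this locus was at background on every array. Among the loci with the smallest p of that test, the knockdown response was lower than the control response by -6.07 on the log2 scale for XLOC_006210 and by -4.79 for XLOC_l2_000986. The first rests on 1 treated control array and so has no spread of its own there. Both were chosen among loci at background on the arrays outside the treated control clones, so these 2 values are descriptions. The knockdown response was higher by 3.21 for XLOC_004620, 3.41 for XLOC_001897 and 3.25 for XLOC_001826, each with background readings in 1 or more conditions. With normexp background correction the last 3 differences were 0.45, 0.73 and 0.52 and did not pass the test (adjusted p = 0.209, 0.0915 and 0.198). Both treated control arrays were on slide 2, so the difference and the slide cannot be told apart.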

How the results depend on the processing

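The 138 probes on in both kinds numbered 174 under the other detection flag (gIsPosAndSignif), but only 46 of those were among the 138. They numbered 122 with the common threshold (98 shared), 118 with a rise of at least 1 log2 unit (118 shared), 138 with flagged spots counted as undetected, and 140 to 177 without 1 array. Requiring 1 treated array of a kind gave 281. The control-only count was 140, 71 and 383 and the knockdown-only count 95, 10 and 346 under the other flag, the common threshold and 1 treated array, and the latter was 20 with the minimum rise. Under the other flag 1 of the 140 and 0 of the 95 were in the original sets, and with the common threshold 29 of the 71 and 9 of the 10. Without 1 array they ran from 34 to 223 and from 61 to 235, highest without treated CONT2 and treated TET1-KD1. Leaving out an array or requiring only 1 treated array can only keep or enlarge any of these sets. A minimum rise can only keep or shrink them, so those directions were fixed in advance. The per-clone gain, knockdown minus control, was 147 and became -218.5 with the common threshold. Losses in knockdown clones were 18 with the other flag and 17 with the common threshold.

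In the control clones, rises and falls were 610 and 329 with normexp, 812 and 625 without a filter, 220 and 303 with probes above background on all 8 arrays, 181 and 152 with the methods' t-test, and 361 to 540 and 264 to 737 without 1 array, lowest without untreated CONT2 and untreated CONT1. In the knockdown clones, rises were 70 with normexp, 3 with the all-array filter, 0 with the methods' t-test and 98 (without untreated TET1-KD1) to 219 without 1 array. Falls were 25 in 1 fit over all arrays, 11 without a filter, 1 with normexp, 0 with the all-array filter and the methods' t-test, 14 with quantile normalization, 13 less the GC trend and 0 to 6 without 1 array. The fit with the clone as replicate block gave 261 rises and 23 falls there, 2 larger responses, and changed no other count by over 1.5 times. Smaller responses numbered 99 with normexp, 128 with the all-array filter, 157 less the GC trend and 14 to 297 without 1 array. Larger ones numbered 0 without a filter, with normexp and with the all-array filter, and 0 to 2 without 1 array. In 1 fit over all arrays 2 probes were lower in untreated knockdown clones, and without 1 array the untreated counts stayed 0. For the named loci, none of the alternatives turned a direction, 40 ended a call and 8 added one, most of the former by the methods' t-test. The causes of these shifts were not tested. The slide could not be blocked for the control response.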
